A study of Rattus norvegicus with 17 samples.

Results

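The comparison described here set 2 doses of the drug FK506 against each other in rat cortical cultures that carried an empty vector. Its members are all libraries the labels place at 0.2 µM (3 libraries) or 2.0 µM (3 libraries) in vector cultures, 6 of the 17 libraries of the series, and every one of the 11247 genes in the deposited table was read. The labels call 0.2 µM sub-saturating and 2.0 µM saturating. Primary cultures of cerebral cortex, described by the labels as glutamatergic neurons and astrocytes, received either the empty vector or α-synuclein with the disease-linked change A53T, and then DMSO (the solvent) or FK506 at either dose. The title of the series names octopamine, whereas its design text and the sample labels name FK506, and the groups here follow the labels. Every vector culture used here shares the infection with the empty vector, and the 3 vector libraries in DMSO are shown beside the 2 doses as the untreated level. The age of the animals, the vector's promoter and the length of treatment are not given in the sources used here, and the labels do not tie the replicates to separate cultures or animals. The p-values and standard errors therefore reflect the spread among libraries alone, which may be technical. That spread was pooled over all groups of the series, not only the 6 libraries compared.

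FK506, also called tacrolimus, binds the small immunophilin FKBP12, the product of Fkbp1a, and the complex blocks calcineurin. Calcineurin is a phosphatase switched on by calcium and calmodulin that is abundant in neurons; it dephosphorylates the NFAT transcription factors and lets them enter the nucleus, and it acts on ion channels and synaptic proteins. FKBP12 also sits on calcium release channels and on the type I receptors of the TGF-beta and BMP family, so a dose step can act through several bound partners.

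Libraries of the vector groups were not equally close to each other. Replicate 1 at 0.2 µM differed from replicates 2 and 3 by a root mean square of 0.414 and 0.382 log2 units, against 0.179 between those 2. At 2.0 µM, replicate 2 differed from replicates 1 and 3 by 0.318 and 0.361, against 0.173 between those 2. Where that matters, counts are also given with this pair of libraries removed. Normalized totals of the 6 libraries ran from 15144883 to 16894652, and the raw depth is unknown.

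Raising FK506 from 0.2 to 2.0 µM shifted a large part of the measured transcripts by small amounts and a few by very large ones. The stress cytokine Gdf15, the cell cycle inhibitor Cdkn1a and the deiodinase Dio2 rose several-fold, while many secreted peptides, neuronal genes and astrocyte genes fell. By limma over all genes, 3785 of 11247 genes were called at an adjusted p of 0.05 (33.7%), of which 2021 were higher at 2.0 µM (18.0% of genes) and 1764 lower (15.7%). The shares of 18.0% and 15.7% are the background for every list's rises and falls at the dose step below. Whether called or not, 45.2% of all genes had no overlap between the 3 libraries at one dose and the 3 at the other, which is the background for each statement on overlap below. Leading genes were required not to overlap, and genes named by their p-value seldom could. Differences are on the log2(value + 1) scale, written as log2 difference ± standard error, and "rose" and "fell" are used only of called genes. Most differences were modest: 207 genes were called and higher by over 1 log2 unit, and 152 were called and lower by over 1. Past 2 log2 units the numbers were 18 and 8. With that pair removed, 3228 genes were called, 1806 higher and 1422 lower.

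**Figure D1:**
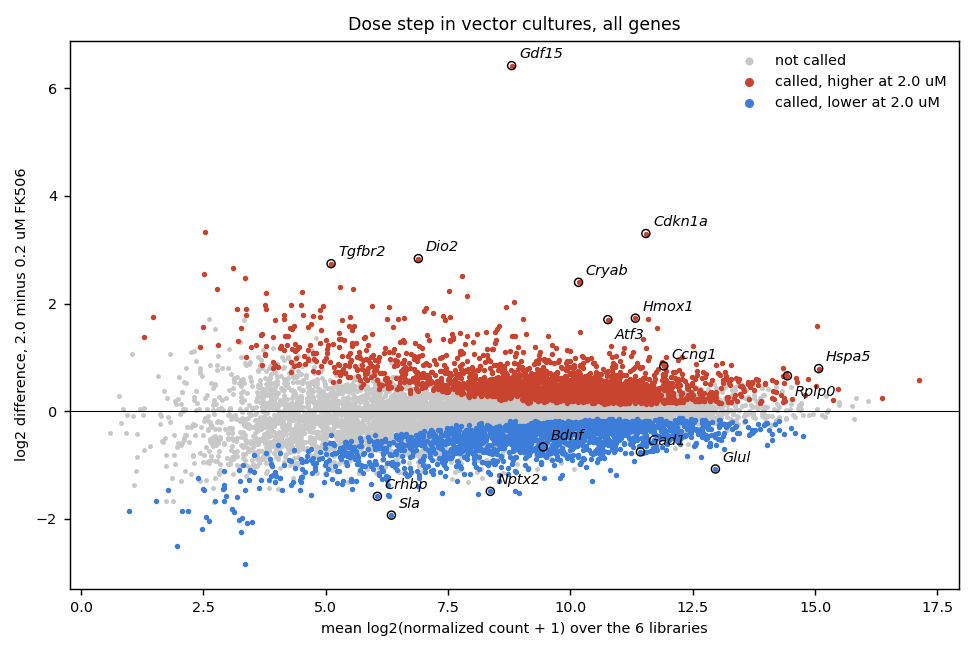
Each point is 1 of the 11247 genes, with its mean log2(normalized count + 1) over the 6 libraries on the horizontal axis and its log2 difference between 2.0 and 0.2 µM FK506 on the vertical axis; red and blue points passed an adjusted p of 0.05. Gdf15 stands alone at 6.42, and 16 named genes are circled.

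The largest rise was in Gdf15, a secreted cytokine of the TGF-beta family that cells release under stress. Its normalized counts were 49.6, 42.2 and 50.1 at 0.2 µM and 3927, 4761 and 3743 at 2.0 µM, against 47.6, 57.1 and 75.6 in DMSO. The lower dose thus left it within the range of DMSO or just below it, and the higher dose lifted all 3 libraries far above both (6.42 ± 0.17, adjusted p = 4.3e-10 by limma). The ratio of the group means was 87.6.

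Cdkn1a, which encodes the cyclin-dependent kinase inhibitor p21, moved at both doses. It read 420.4, 374.1 and 416.4 in DMSO, 1045, 938.1 and 870.8 at 0.2 µM, and 9105, 11118 and 8096 at 2.0 µM. None of the 3 groups overlapped, and the dose step alone was 3.30 ± 0.13 (adjusted p = 2e-08 by limma). Dio2, the deiodinase that turns thyroxine into active thyroid hormone, had the same order: 21.4 to 23.4 in DMSO, 40.7 to 45.8 at 0.2 µM and 282.9 to 335.9 at 2.0 µM (2.84 ± 0.20).

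Tgfbr2, the type II receptor for TGF-beta, was low in DMSO (7.16 to 17.8) and at 0.2 µM (6.93 to 19.8) and reached 87.9, 77.4 and 101.1 at 2.0 µM (2.74 ± 0.37). Gtse1, a p53-binding protein of the cell cycle, went from 83.3, 91.2 and 101.3 to 534.5, 600.1 and 456.3 (2.51 ± 0.17). The small heat shock protein Cryab went from 587.4, 432.1 and 492.6 to 2516, 3441 and 2112 (2.40 ± 0.19). The 6 further leading rises covered 2.04 to 2.31 log2 units. They were the zinc finger factor Zbtb20, the kinase-binding subunit Cks2, the muscle troponin Tnnc2, the cytoskeletal protein Smtn, the AP-1 factor Fosl1 and the oxidative stress gene Osgin1.

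The falls were smaller than the rises. Sla, an adaptor protein that dampens receptor signalling, read 126, 178.7 and 172.9 at 0.2 µM and 51.7, 28.4 and 45.6 at 2.0 µM (-1.93 ± 0.25, adjusted p = 0.00013 by limma). Crhbp, which binds corticotropin-releasing hormone, had already dropped from 409.6, 411.7 and 432.3 in DMSO to 93.3, 131.6 and 120.6, and dropped again to 30.2, 45.3 and 38.5 (-1.58 ± 0.18 for the dose step). Cckbr, the brain receptor for cholecystokinin, stood at 851.3, 863.3 and 800.9 and then at 300.3, 378.8 and 215.6 (-1.52 ± 0.19). The synaptic pentraxin Nptx2 went from 486.2, 594.4 and 576 to 201.8, 242.5 and 152.8 (-1.49 ± 0.19), and the activity-dependent transcription factor Npas4 from 713.4, 785.5 and 825 to 260.3, 265.1 and 308.7 (-1.48 ± 0.33).

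In several other leading falls 1 library lay closer to the opposite group. Replicate 1 at 0.2 µM read 67.5 for the PDZ protein Pdzd2, where replicates 2 and 3 read 219.9 and 166.5 and the 2.0 µM libraries 27.3 to 57.7 (-1.58 ± 0.48). The class IIa deacetylase Hdac9 showed the same layout, with 79.4 against 179.6 and 158.8 at 0.2 µM and 34 to 55.6 at 2.0 µM (-1.56 ± 0.34), as did the lipid kinase Dgkg (-1.54 ± 0.31) and the immediate early factor Egr3 (-1.51 ± 0.41). Pdzd2 was not called without replicate 2 at 0.2 µM (-1.23, adjusted p = 0.11 by limma), without replicate 3 (-1.43, 0.08) or without replicate 2 at 2.0 µM (-1.23, 0.1). Egr3 was not called without replicate 2 (-1.27, 0.065) or replicate 3 (-1.33, 0.059) at 0.2 µM. Ctxn3, a small neuronal membrane protein, had 1 higher library at 2.0 µM (9.73, 30.3 and 9.12, against 38.4 to 48.6), and Stard8, a protein with a START lipid-binding domain, fell by 1.45.

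**Figure D2:**
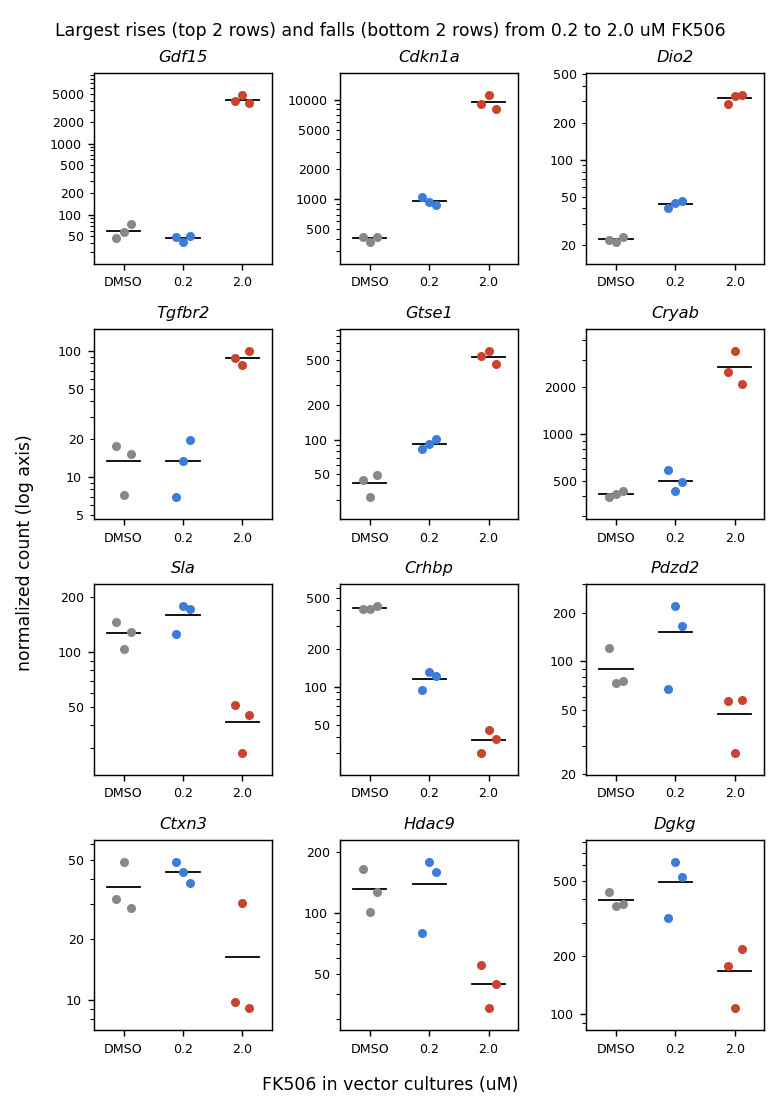
Normalized counts on a log axis for 6 of the 12 largest rises and 6 of the 12 largest falls, in vector cultures given DMSO, 0.2 µM or 2.0 µM FK506; each point is 1 library and each bar the mean of 3. Gdf15 and Tgfbr2 were called against DMSO at 2.0 µM and not at 0.2 µM, while Cdkn1a, Dio2, Gtse1 and Crhbp moved at each dose.

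Among genes of the drug's own pathway, more fell than rose. Of 12 measured calcineurin and NFAT genes 7 fell and 1 rose, with a median of -0.28 against -0.01 over all genes. Library medians relative to DMSO were -0.17, 0.19 and 0.12 at 0.2 µM and -0.26, -0.37 and -0.22 at 2.0 µM. Replicate 1 at 0.2 µM thus lay nearest the higher dose. The falls numbered 8 without that library and 5 without replicate 2 at 2.0 µM. Ppp3ca, the main neuronal catalytic subunit, read 2069, 2780 and 2636 at 0.2 µM and 1610, 1239 and 1715 at 2.0 µM (-0.72 ± 0.16, adjusted p = 0.0055 by limma), while its DMSO level (2339 to 2533) lay inside the range at 0.2 µM. The regulatory subunit Ppp3r1 (-0.27 ± 0.07), the third catalytic subunit Ppp3cc (-0.22 ± 0.06) and the calcineurin-binding protein Cabin1 (-0.29 ± 0.05) fell by less, and Ppp3cb was at -0.53 ± 0.21 without passing (adjusted p = 0.075 by limma). Nfatc2 fell from 69.5, 125.8 and 122.5 to 53.6, 35.1 and 46.6 (-1.19 ± 0.29), while Nfatc3 rose from 155.8, 147.9 and 137.8 to 213.6, 201.8 and 178.1 (0.42 ± 0.11), having already risen from DMSO. The scaffold Akap5, which anchors calcineurin at synapses, fell by 1.18 ± 0.31.

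Rcan1, a calcineurin inhibitor with an NFAT-responsive isoform, was at 1654, 1566 and 1568 at 0.2 µM and at 1755, 1606 and 1706 at 2.0 µM, so the doses overlapped (0.08 ± 0.06, adjusted p = 0.35 by limma). Rcan2 fell at each dose: 2709 to 2862 in DMSO, 1771 to 1913 at 0.2 µM and 1464 to 1602 at 2.0 µM, a step of -0.60 ± 0.05 and then of -0.25 ± 0.05. Nfatc1 and Rcan3 were not called. Akap5 was not called without replicate 2 at 0.2 µM (-0.84, adjusted p = 0.056 by limma) or replicate 2 at 2.0 µM (-1.0, 0.053), and Ppp3cc was not called without the latter (-0.19, 0.068).

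The FK506-binding proteins themselves moved little. Of 14 measured members 4 rose and 1 fell (28.6% and 7.14%, against 18.0% and 15.7% of all genes), with a median of 0.08. Fkbp1a, the drug's receptor FKBP12, read 13014, 10988 and 11023 at 0.2 µM and 12362, 13721 and 11696 at 2.0 µM, with overlap (0.11 ± 0.09, adjusted p = 0.37 by limma). Fkbp10, a collagen chaperone of the endoplasmic reticulum, rose from 574.5, 519.5 and 522.2 to 789.9, 898.1 and 790.3 (0.61 ± 0.08, adjusted p = 0.00012 by limma) and kept its call with any 1 library left out. Fkbp11, also of the endoplasmic reticulum, rose by 0.67 ± 0.19, Fkbp7 by 0.38 ± 0.13 and Fkbp9 by 0.20 ± 0.07, and Fkbp1b, the close relative of FKBP12 found on ryanodine receptors, fell by 0.34 ± 0.11. Each of these 4 lost its call when certain single libraries were left out: Fkbp11 without replicate 2 or 3 at 0.2 µM or replicate 2 at 2.0 µM (0.54 to 0.60), Fkbp7 without any 1 library other than replicate 1 at 0.2 µM (0.30 to 0.43), Fkbp1b without any 1 library other than replicate 2 at 2.0 µM (-0.36 to -0.30), and Fkbp9 without replicate 1 or 2 at 0.2 µM or 2 or 3 at 2.0 µM (0.14 to 0.21).

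Genes for calcium release channels and pumps fell in 10 of 15 measured cases and rose in 1 (median -0.47). Examples are the endoplasmic reticulum pump Atp2a2 (7742 to 8947 at 0.2 µM, 5509 to 6459 at 2.0 µM, -0.50 ± 0.09), the plasma membrane pumps Atp2b2 (-0.68 ± 0.08) and Atp2b3 (-0.66 ± 0.10), the IP3 receptor Itpr1 (-0.65 ± 0.13) and the ryanodine receptor Ryr2 (-0.68 ± 0.12). At 0.2 µM the list as a whole sat at its DMSO level, with library medians of -0.13, 0.04 and 0.03, and 0 of its members were called against DMSO in either direction (over all genes, 18.3% were called in that comparison, 7.70% higher and 10.6% lower). Leaving out replicate 2 at either dose reduced the falls from 10 to 6.

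Receptors and targets of TGF-beta and BMP signals did not move as a group: 4 of 22 rose, 3 fell and the median was -0.08. Besides Tgfbr2, the activin receptor Acvr2b rose from 32.6 to 45.9 up to 60.7 to 102.4 (0.96 ± 0.21), and the BMP signal transducer Smad1 rose at each dose, by 0.39 ± 0.09 and then 0.44 ± 0.09. Of the Id genes, which BMP signals induce, Id2 fell from 657.8, 716.4 and 663.7 to 323.7, 323.6 and 300.6 (-1.10 ± 0.09, adjusted p = 7e-06 by limma), Id4 fell by 0.40 ± 0.11, and Id1 (-0.01 ± 0.19) and Id3 (0.04 ± 0.27) were not called. The BMP antagonist Nog fell by 0.54 ± 0.15. Id4 lost its call without replicate 2 at 2.0 µM (-0.34, adjusted p = 0.052 by limma), and Nog without replicate 2 at 0.2 µM (-0.46, 0.075) or replicate 3 at 2.0 µM (-0.43, 0.068).

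Targets of the tumour suppressor p53 rose in 13 of 26 cases and fell in 0, against 18.0% called higher over all genes, with a median of 0.49. Median levels of the list relative to DMSO were 0.22, 0.12 and 0.24 in the 3 libraries at 0.2 µM and 0.74, 0.55 and 0.81 in those at 2.0 µM. Mdm2, the ubiquitin ligase that p53 induces against itself, stood at 860.3, 774.9 and 889.1 at 0.2 µM, no higher than DMSO, and at 1709, 1891 and 1545 at 2.0 µM (1.02 ± 0.09). Cyclin G1 (Ccng1) rose from 2703 to 2980 up to 5106 to 5223 (0.84 ± 0.05), and the microtubule-associated protein Ckap2 from 39.3 to 44.1 up to 126.8 to 143.8 (1.71 ± 0.15). The antiproliferative gene Btg2 rose by nearly equal amounts at each dose, by 0.87 ± 0.07 and then 0.93 ± 0.07.

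The integrated stress response, in which phosphorylated eIF2α favours translation of the factor ATF4, had 14 of 31 genes higher and 5 lower (median 0.21). Atf3 went from 1020, 774.9 and 1133 to 3148, 3176 and 3093 (1.70 ± 0.11), and the eIF2α phosphatase subunit Ppp1r15a from 3147 to 3793 up to 6879 to 7392 (1.01 ± 0.08). The mTOR inhibitor Ddit4 (0.65 ± 0.10) and the amino acid transporter subunit Slc3a2 (0.55 ± 0.06) rose too. Aminoacyl-tRNA synthetases, several of which are ATF4 targets, rose in 10 of 20 cases and fell in 2, by small amounts such as 0.55 ± 0.08 for Rars, 0.51 ± 0.06 for Tars and 0.37 ± 0.05 for Eprs. Leaving out replicate 1 at 2.0 µM lowered the rises of the stress list from 14 to 9.

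Chaperones and degradation factors of the endoplasmic reticulum rose in 15 of 28 cases and fell in 0 (median 0.22). The main chaperone Hspa5 (BiP) read 20554 to 20828 in DMSO, 27374, 24206 and 27104 at 0.2 µM, and 45666, 44234 and 46281 at 2.0 µM, so each dose added to it (0.34 ± 0.07, then 0.79 ± 0.07, adjusted p = 1.3e-05 by limma for the dose step). The disulfide isomerase P4hb rose from 6767 to 7849 up to 12305 to 14631 (0.85 ± 0.07), the co-chaperone Dnajc3 from 444.9 to 457.1 up to 772.1 to 858.2 (0.87 ± 0.10), and Manf (0.58 ± 0.07) and Derl1 (0.48 ± 0.05) also rose. Without replicate 2 or replicate 3 at 0.2 µM 9 of the 28 were called higher.

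Promoters of these chaperone genes are known to carry the endoplasmic reticulum stress element, CCAAT and CCACG separated by 9 bases, which ATF6 and NF-Y bind. The letters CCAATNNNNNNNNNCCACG were searched on both strands of the 250 bases before to 50 bases after each gene's outermost start in RefSeq's promoter table (build GRCr8). They occurred in 9 of the 21 promoters found for this list (42.9%), against 16 of 8581 promoters of measured genes (0.186%) and 21 of 27457 in the table (0.0765%). The search asked whether the genes with the element were the ones that rose. The 250 bases before the Hspa5 start are shown first, at chr3:38452766-38453015 on the plus strand of GRCr8, with both parts of its element in capitals.
Hspa5: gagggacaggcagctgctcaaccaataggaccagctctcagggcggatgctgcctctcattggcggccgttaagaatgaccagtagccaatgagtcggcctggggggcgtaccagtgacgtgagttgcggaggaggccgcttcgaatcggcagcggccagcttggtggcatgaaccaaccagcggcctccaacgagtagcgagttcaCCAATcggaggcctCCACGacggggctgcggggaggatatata

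Below are the elements of 4 genes that rose and of 4 that were not called, each read 5′ to 3′ on the strand where the letters match, with CCAAT and CCACG in capitals.
Dnajc3 (rose by 0.87): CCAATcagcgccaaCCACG
Calr (rose by 0.53): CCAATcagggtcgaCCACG
Creld2 (rose by 0.43): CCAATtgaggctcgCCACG
Hsp90b1 (rose by 0.18, first of 2): CCAATcgaaaggagCCACG
Derl3 (0.22, not called): CCAATaaggaagtcCCACG
Xbp1 (-0.03, not called): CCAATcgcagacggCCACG
Canx (-0.14, not called): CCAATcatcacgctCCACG
Ero1b (-0.28, not called): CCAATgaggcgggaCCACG
Of the 9 genes whose window held the letters 5 rose, with a median of 0.22, and of the 12 without them 6 rose, with a median of 0.20. The share that rose and the median were thus close in both sets. Creld2 lost its call without replicate 2 or 3 at 0.2 µM or replicate 2 at 2.0 µM (0.32 to 0.40), and Hsp90b1 without replicate 2 or 3 at 0.2 µM or replicate 3 at 2.0 µM (0.15 to 0.18). A match describes the sequence and is not evidence of binding. The 4 other motifs searched the same way gave few matches in the lists they are known from. TGATGCAA, the core bound by ATF4 with C/EBP factors, occurred in 3 of 30 integrated stress response promoters, against 0.501% of measured genes, and the cyclic AMP element TGACGTCA in 1 of 30 (3.33%, against 3.36%). The antioxidant core TGACNNNGC occurred in 3 of 15 Nrf2 target promoters (against 14.8% of measured genes). Its share was larger in other lists, with 8 of 30 integrated stress response and 4 of 18 cholesterol promoters. It was smaller in endoplasmic reticulum (2 of 21), heat shock (2 of 17) and p53 target (2 of 18) promoters. The antioxidant core thus did not set the Nrf2 list apart. The sterol core TCACNCCAC occurred in 0 of 18 cholesterol promoters (against 1.17%).

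Cytosolic and mitochondrial heat shock proteins rose in 15 of 21 cases and fell in 0 (median 0.27), and 12 to 16 rose when any 1 library was left out. At 0.2 µM their library medians were 0.02, -0.06 and -0.04 relative to DMSO, and at 2.0 µM they were 0.15, 0.17 and 0.16. The inducible chaperones led: Hspa1a went from 274.8, 162.2 and 205.5 to 815.4, 928.1 and 681 (1.93 ± 0.18), Hspa1b from 1620 to 1999 up to 4410 to 4666 (1.33 ± 0.07), and the co-chaperone Bag3 from 260.2 to 282.7 up to 724.6 to 729.6 (1.40 ± 0.10). Targets of the antioxidant factor Nrf2 rose in 7 of 20 cases and fell in 1. Besides Osgin1, ferritin light chain (Ftl1) rose from 17353 to 22676 up to 48704 to 74163 (1.58 ± 0.16) and sulfiredoxin (Srxn1) from 1068 to 1312 up to 2479 to 3078 (1.21 ± 0.09).

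Some genes lay below DMSO at 0.2 µM and at or above it at 2.0 µM. Haem oxygenase (Hmox1) read 2198, 2024 and 2560 in DMSO, 1483, 1238 and 1528 at 0.2 µM, and 4629, 5351 and 4136 at 2.0 µM; against DMSO the lower dose lowered it by 0.67, and the dose step was 1.73 ± 0.11. The small heat shock protein Hspb1 went from 248.2 to 318.5 in DMSO down to 80.6 to 123.9 and back to 209.5 to 372.8. Its 2.0 µM libraries overlapped DMSO, with 1 library below the DMSO range and 1 above it.

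Some genes of cholesterol synthesis had this shape, while the list as a whole stayed at or below DMSO, with library medians of -0.30, -0.23 and -0.18 at 0.2 µM and -0.11, -0.02 and -0.14 at 2.0 µM. Of 25 measured genes of synthesis and uptake 0 rose and 9 fell from DMSO to 0.2 µM, while 13 rose and 2 fell from 0.2 to 2.0 µM (median 0.18). Shares of all genes were 7.70% higher and 10.6% lower in the first comparison, and 18.0% and 15.7% in the second. Msmo1, a sterol C4-methyl oxidase, read 2603, 2637 and 2658 in DMSO, 1587, 1442 and 1405 at 0.2 µM, and 3084, 3282 and 3062 at 2.0 µM (1.09 ± 0.06, adjusted p = 7.4e-07 by limma). The lanosterol demethylase Cyp51 read 3403 to 3418, 2696 to 2901 and 5038 to 5251 (0.88 ± 0.05). Insig1 helps hold the transcription factor SREBP in the endoplasmic reticulum and is itself an SREBP target. It was at 2129 to 2259 at 0.2 µM and at 4216 to 4545 at 2.0 µM (1.01 ± 0.08). Dhcr7 (0.69 ± 0.07), which was level with DMSO at 0.2 µM (0.03), and Idi1 (0.53 ± 0.07) rose too. Both contrasts use the 0.2 µM libraries, so a value that is low there lowers the first and raises the second. Set directly against DMSO, 2.0 µM left 9 of the 25 higher and 6 lower (of all genes 47.2% were called in that comparison, 23.4% higher and 23.8% lower).

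**Figure D3:**
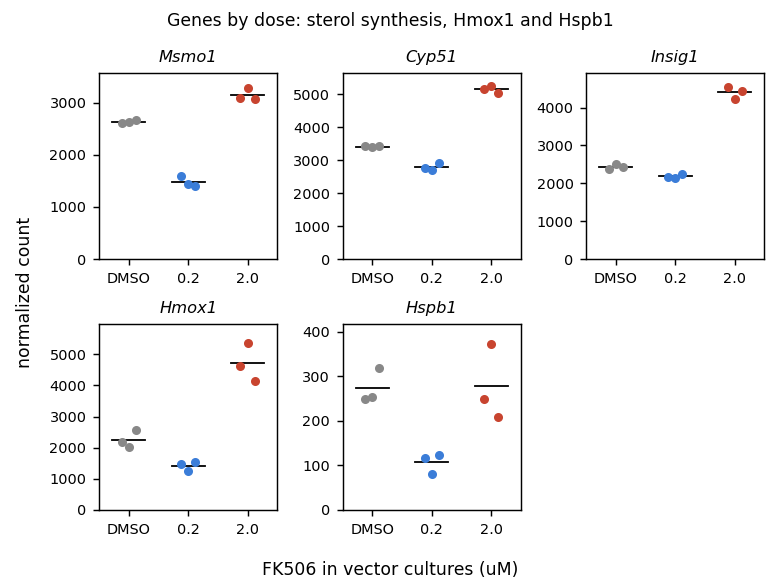
Normalized counts from 0 upward for 3 sterol genes and for Hmox1 and Hspb1 in vector cultures given DMSO, 0.2 µM or 2.0 µM FK506; points are libraries and bars means of 3. In the 5 panels the 0.2 µM libraries lie below those in DMSO; at 2.0 µM, Msmo1, Cyp51, Insig1 and Hmox1 lie above DMSO, while Hspb1 overlaps it.

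Astrocyte genes fell with the dose step. Of 18 measured markers 12 fell and 2 rose (15.7% of all genes were called lower), and the library medians went from -0.29, -0.23 and -0.36 relative to DMSO to -0.77, -0.81 and -0.76. The gap junction protein Gja1 went from 2545, 2719 and 2568 to 1266, 1080 and 1337 (-1.09 ± 0.11), while 0.2 µM had left it near its DMSO level of 2876 to 3149. Glutamine synthetase (Glul) read 12586 to 13871 in DMSO, 10488 to 13523 at 0.2 µM and 4979 to 5990 at 2.0 µM (-1.07 ± 0.10). The lipid enzyme Acsbg1 (-0.77 ± 0.05), the glutamate transporter Slc1a3 (-0.65 ± 0.07) and the mitochondrial glutamate carrier Slc25a18 (-0.95 ± 0.11) fell at each dose. Summed over the list, the levels were 140870 to 143363 in DMSO, 97570 to 103085 at 0.2 µM and 69148 to 69665 at 2.0 µM. In these mixed cultures fewer cells of a type and less RNA per cell cannot be told apart. Of 19 reactive astrocyte genes 6 rose and 2 fell with the dose step, after 0 had risen and 10 had fallen from DMSO to 0.2 µM. Over all genes, 7.70% were called higher and 10.6% lower from DMSO to 0.2 µM. The filament Nes (1.02 ± 0.07) and the receptor Cd44 (0.63 ± 0.13) rose, and the adhesion protein Amigo2 fell (-0.58 ± 0.14). Against DMSO the list had a median of -0.17 at 2.0 µM. Its falls at the step numbered 1 without replicate 3 at 0.2 µM or replicate 2 at 2.0 µM and 3 without replicate 2 at 0.2 µM.

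Markers of GABAergic interneurons fell in 10 of 15 cases and rose in 0. Relative to DMSO the library medians were -0.39, -0.15 and -0.25 at 0.2 µM and -1.0, -0.96 and -0.90 at 2.0 µM. Gad1, which makes GABA, stepped from 5458 to 5994 in DMSO to 3397 to 3690 and then to 1863 to 2322 (-0.75 ± 0.08, adjusted p = 4.1e-05 by limma), and the vesicular GABA transporter Slc32a1 from 4211 to 4493 to 3098 to 3262 and then to 2094 to 2228 (-0.54 ± 0.05). The interneuron fate factor Lhx6 (-0.66 ± 0.09) and the matrix protein Reln (-0.69 ± 0.14) fell as well. Without replicate 2 at 0.2 µM 6 of the 15 were called lower.

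Excitatory and general neuron markers fell less evenly. Glutamatergic markers fell in 11 of 19 cases and pan-neuronal markers in 9 of 18, and 0 rose in either list. Neurod6, a cortical projection neuron factor, stayed within the DMSO range or close to it at 0.2 µM (1466, 1370 and 1207, against 1342 to 1420) and then read 874.8, 862.3 and 817.6 (-0.66 ± 0.08). Snap25, a membrane fusion protein, went from 8295 to 9235 to 4247 to 5253 (-0.84 ± 0.18), and the heavy neurofilament Nefh from 242.9 to 259.3 to 141.7 to 163.8 (-0.75 ± 0.10). Library medians of the glutamatergic list were -0.17, 0.22 and 0.13 at 0.2 µM and -0.41, -0.63 and -0.27 at 2.0 µM. The glutamatergic falls numbered 5, 7 and 7 without replicate 2 at 0.2 µM, replicate 3 at 0.2 µM and replicate 2 at 2.0 µM.

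Synaptic and channel genes fell in large numbers, but here too the pair of libraries named above stood apart. Replicate 1 at 0.2 µM lay nearest the higher dose, and replicate 2 at 2.0 µM lay farthest from the lower dose. Postsynaptic genes fell in 14 of 26 cases, presynaptic vesicle genes in 13 of 26 with 1 rise, and potassium and sodium channels in 13 of 24. For postsynaptic genes the library medians at 0.2 µM were -0.23 in replicate 1 and 0.47 and 0.38 in replicates 2 and 3, while at 2.0 µM they were -0.30, -0.65 and -0.21, so replicate 1 at 0.2 µM lay inside the range of the higher dose. Channel genes had -0.24 against 0.45 and 0.17 at 0.2 µM, and -0.37, -0.73 and -0.36 at 2.0 µM. With that pair removed, 14 postsynaptic, 15 presynaptic and 9 channel genes fell, and postsynaptic falls ranged from 8 to 19 with 1 library left out: 8 without replicate 2 at 0.2 µM or replicate 2 at 2.0 µM, and 9 without replicate 3 at 0.2 µM. Some members were even across replicates: the active zone scaffold Bsn read 3202 to 3545 and then 2117 to 2217 (-0.65 ± 0.07), the postsynaptic scaffold Dlgap1 3011 to 3350 and then 1965 to 1989 (-0.66 ± 0.06), and the fast-spiking potassium channel Kcnc2 411.2 to 466.7 and then 216.5 to 238.8 (-0.97 ± 0.10).

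Cytosolic ribosomal protein genes moved with the same libraries in the other direction. Of 22 measured 12 rose and 0 fell (median 0.48), but their library medians were 0.10, -0.32 and -0.29 at 0.2 µM and 0.20, 0.53 and 0.12 at 2.0 µM. Rplp0 was at 20992, 15507 and 16823 and then at 26082, 33087 and 24938 (0.66 ± 0.15). Leaving out replicate 1 at 0.2 µM raised the count from 12 to 21, while leaving out replicate 2 or 3 at 0.2 µM or replicate 2 at 2.0 µM lowered it to 3, 4 and 3. The part that library quality or composition plays in the synaptic, channel, ribosomal, calcineurin and glutamatergic lists was not tested. Housekeeping genes gave 2 rises and 0 falls among 12 (median -0.03).

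**Figure D4:**
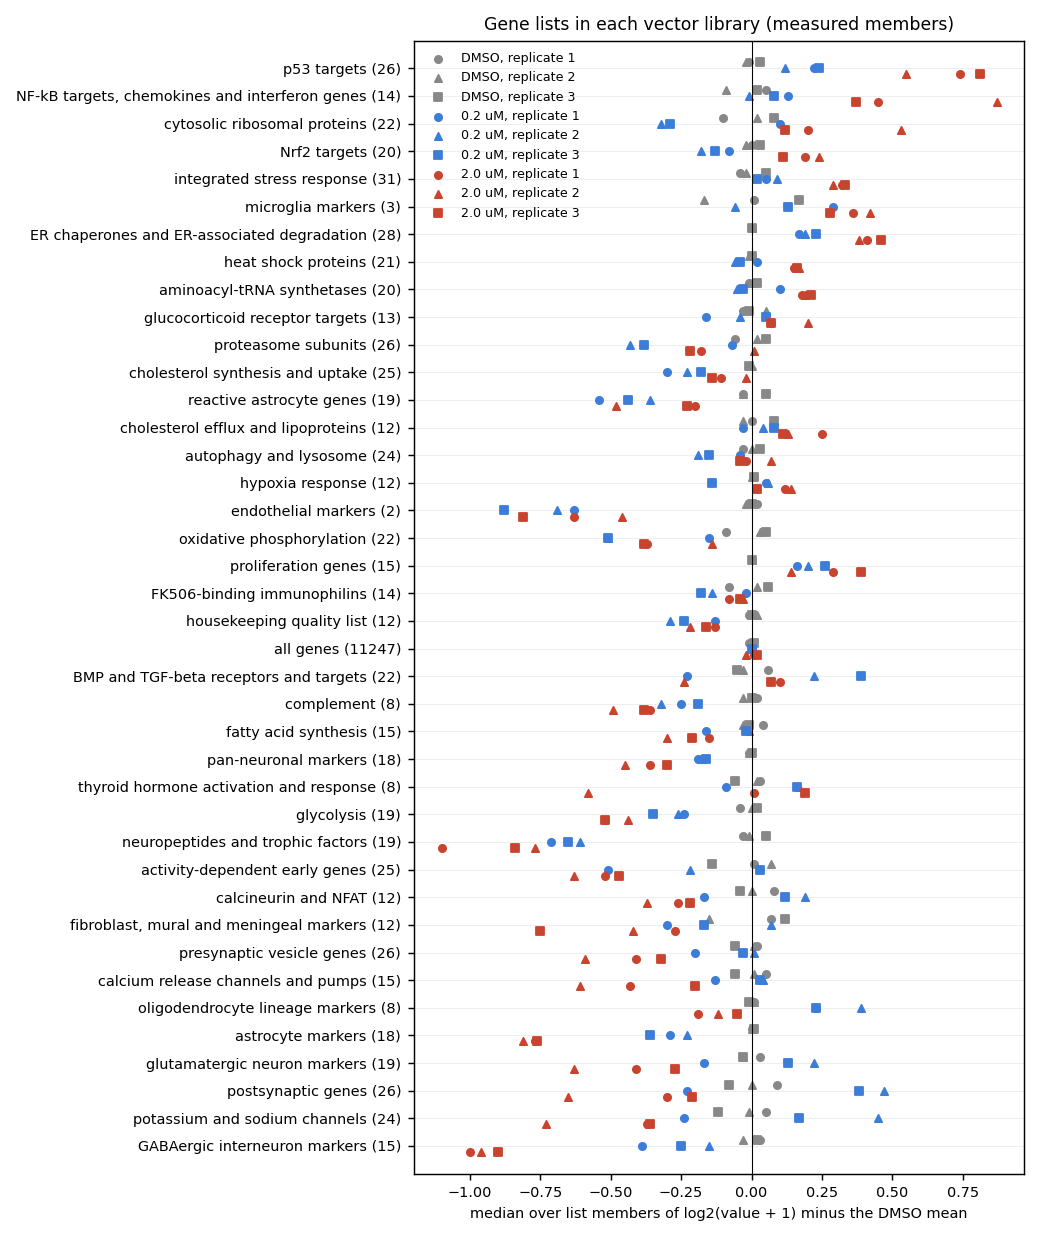
For 39 gene lists and for all genes, each point is the median over measured members of log2(value + 1) in 1 vector library minus the mean of the 3 DMSO libraries; colours mark the dose, shapes the replicate, and lists are ordered by the mean difference between doses. The p53, endoplasmic reticulum and heat shock lists separate the doses with little spread, as do astrocyte and GABAergic markers on the lower side, whereas ribosomal, postsynaptic and channel lists are spread widely within a dose.

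Of 19 measured secreted neuronal peptides and trophic factors 13 fell and 0 rose with the dose step. From DMSO to 0.2 µM 13 had fallen and 1 had risen, and the sets of 13 were not the same genes. In that comparison 10.6% of all genes were called lower and 7.70% higher. Bdnf, the activity-regulated neurotrophin, read 2092 to 2200 in DMSO, 920.8, 808.5 and 897.8 at 0.2 µM, and 542.2, 554.7 and 560.6 at 2.0 µM (-0.66 ± 0.12 for the dose step). Nptx1, a pentraxin related to Nptx2, had not passed at 0.2 µM (0.27 ± 0.12) and fell at 2.0 µM (-0.60 ± 0.12). Peptide falls numbered 7 without replicate 2 at 0.2 µM and 8 without replicate 3 at 2.0 µM. Activity-dependent early genes split evenly, with 7 rises and 7 falls among 25. The AP-1 gene Fosl2 rose from 29.8, 43.2 and 46.7 to 147.3, 142.8 and 166.9 (1.93 ± 0.18), Jun rose at each dose (0.71 ± 0.05 and 0.61 ± 0.05) and Ier2 rose by 1.14 ± 0.15, whereas the G protein regulator Rgs2 fell from 1407 to 1461 to 746.8 to 780.1 (-0.91 ± 0.12). The early-gene falls numbered 4 without replicate 3 at 0.2 µM.

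Inflammatory genes rose in part. Of 14 NF-kB targets, chemokines and interferon genes 7 rose and 3 fell (median 0.57). The chemokine Cxcl1 rose from 14.9, 9.56 and 17.3 to 35.1, 50.3 and 42.5 (1.57 ± 0.25), the adhesion molecule Icam1 from 194.9 to 248.9 up to 372.4 to 539.5 (1.05 ± 0.15) and the subunit Nfkb2 by 0.75 ± 0.14. Of 18 microglial markers sought 3 were in the table. Cd68, a lysosomal protein of phagocytes, rose from 259, 163.2 and 235.8 to 616.4, 667 and 656.7 (1.58 ± 0.15), and Laptm5 was not called. The summed level of these 3 was 2596 to 3018 at 0.2 µM and 3411 to 3697 at 2.0 µM, and its part in the inflammatory rises was not tested.

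A glucose transporter rose and a phosphofructokinase fell. The glucose transporter Slc2a1 was flat from DMSO (1037 to 1099) to 0.2 µM (1003 to 1080) and rose to 1931, 1917 and 2023 at 2.0 µM (0.89 ± 0.05, adjusted p = 9e-07 by limma). The phosphofructokinase Pfkp fell from 10164 to 10652 to 7757 to 7886 (-0.41 ± 0.05). In the whole glycolysis list of 19, 2 rose, 5 fell and 12 were not called, against 18.0% called higher and 15.7% lower over all genes. From DMSO to 0.2 µM 13 had fallen and 0 had risen, against 10.6% and 7.70% of all genes. Oxidative phosphorylation genes gave 1 rise and 2 falls among 22, and proteasome subunits 4 rises and 2 falls among 26 (12 rises without replicate 1 at 0.2 µM, and 0 without replicate 2 or 3 at 0.2 µM or replicate 2 at 2.0 µM).

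Transcripts called in the same direction at each dose included Cdkn1a and Btg2 above, and a few more with large steps at both doses follow. Cyp27b1, the enzyme that activates vitamin D, read 16.7 to 24.6 in DMSO, 40.7 to 53.7 at 0.2 µM and 137.6 to 146.7 at 2.0 µM (1.23 ± 0.20, then 1.57 ± 0.20). The contractile protein Tagln read 769.6 to 957.6, 1607 to 2331 and 5411 to 6809, and the acetylcholine receptor subunit Chrne 108.3 to 128.9, 272.7 to 368.1 and 832.8 to 984.7. On the lower side, the receptor ligand Fam150b went from 250.6 to 288.7 to 93.3 to 98.1 and then to 29.5 to 43.5. Klf7, a Krüppel-like factor of neurons, turned: it rose from 39.7 to 50 in DMSO to 66.5 to 92.1 and fell back to 39.7 to 50.7 (-0.81 ± 0.17).

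The same dose step in A53T cultures can be set beside these values, within the limits of its 0.2 µM group. The 3 A53T libraries at 0.2 µM agreed more closely than those of the other groups. With normalized values taken as counts, their squared differences were 0.995 to 1.05 times the Poisson expectation, against 1.48 to 14.5 times elsewhere. Raw depth is unknown, so whether they differ only by sampling noise cannot be told. The 3 libraries were counted as 1 sample by their mean, which is assumed to vary like the other groups. This group also stood far from the rest: its mean differed from those of the other 5 groups by a root mean square of 1.14 to 1.51 log2 units, against 0.316 to 0.613 among those 5. Every A53T dose step below starts from it. Because the leading genes were chosen on the vector step, which the contrast subtracts, their counts and directions are a description. By limma the dose step differed between the genotypes for 7651 of 11247 genes (68.0%). Of the 12 leading rises 9 differed, and 9 of the 12 moved in the same direction in A53T; of 11 leading falls 6 differed, and 9 moved in the same direction. Gdf15 rose in A53T as well, but from 60.8 to 73.1 up to 189.1 to 275.4 (1.79, while A53T in DMSO read 380.2 and 393.6; a difference between the steps of -4.63 ± 0.30, adjusted p = 1.8e-06 by limma). Cdkn1a rose by 1.56 there, from 1126 to 1184 up to 2826 to 3806, again less than in vector (-1.74 ± 0.22). Zbtb20 went the other way, from 287.7 to 346.8 down to 14.4 to 18.1 in A53T, against 15 and 18.1 there in DMSO. Dio2 read 7.14 and 11.8 in A53T in DMSO, 125.8 to 151.9 at 0.2 µM and 51 to 75.2 at 2.0 µM, and Tgfbr2 read 14.4 and 16, 57.9 to 62.3 and 11.8 to 19.1, so in all 3 genes the A53T step was a fall from a high level at 0.2 µM. For Hspa5 (0.74 in A53T, difference -0.05 ± 0.13) and Nptx2 (-1.48, difference 0.00 ± 0.32) the difference between genotypes did not pass.

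**Figure D5:**
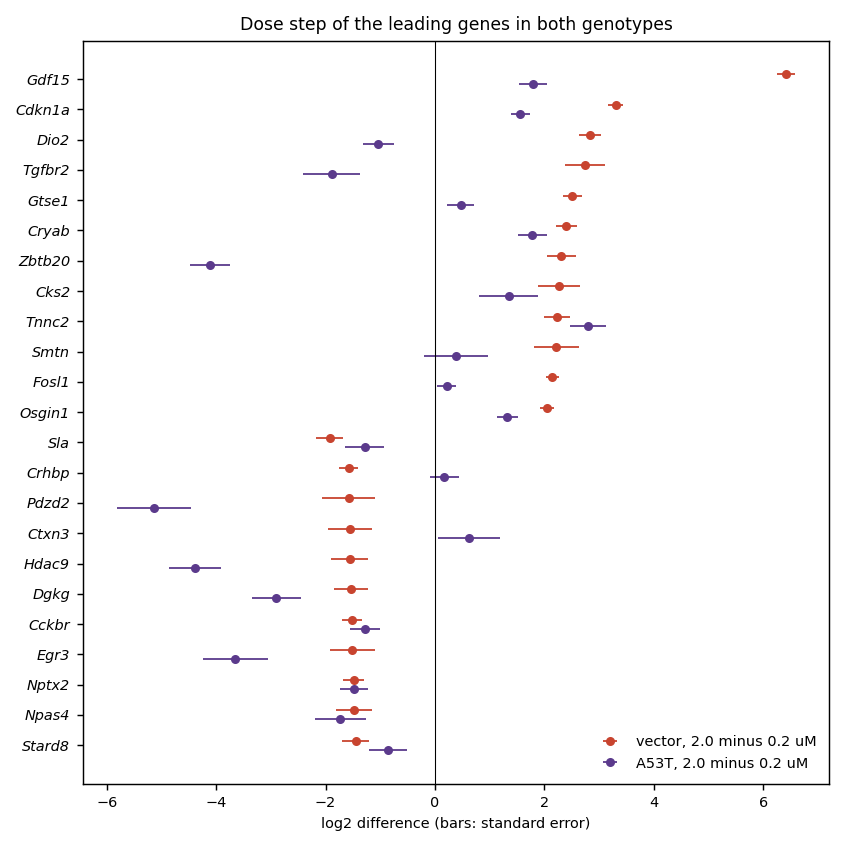
Log2 difference between 2.0 and 0.2 µM FK506 with its standard error for the 12 largest rises and 11 of the 12 largest falls of vector cultures, in vector (red) and in A53T (purple, whose 0.2 µM group is 1 averaged sample). Gdf15, Cdkn1a, Cryab, Tnnc2 and Nptx2 lie on the same side of 0 in both, and Dio2, Tgfbr2 and Zbtb20 on opposite sides.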

How the data were processed

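RNA-seq was made from rat cortical cultures; per the labels' protocols, RNA was extracted with RNeasy columns and libraries prepared with a stranded mRNA kit (TruSeq). The submitters' processing notes name FastQC, TopHat, HTSeq and the build rn6, with no versions. The deposited table holds gene counts that the authors normalized between libraries, treated here as a signal on a linear scale. How they were normalized is not given in the sources used here. These normalized values were not whole multiples of 1 read, so raw depth is unknown, no counting interval was computed and no count-based test was run.

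Groups came from the labels; 1 A53T column in DMSO was matched to its group but to no replicate number. Values were transformed to log2(value + 1), and a mean of at least 1 over all libraries was required, which removed 0 of the 11247 genes. limma 3.58.1 in R 4.3.3, with a mean trend and 1 mean per group, was fitted to 15 samples (9 residual degrees of freedom), with the 3 A53T libraries at 0.2 µM averaged into 1. P-values were adjusted by Benjamini-Hochberg over all genes and called at 0.05. The code was tested on simulated data. Alternatives changed the pseudocount, filter, scaling, variance model, libraries, samples in the fit and a replicate block.

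The comparison, the 39 gene lists and the tests were chosen with earlier results of these data known. Genes named are the 12 largest rises and falls among called genes (mean level 20 or more, doses not overlapping), up to 5 members of each list by smallest p, any member of the calcineurin, FK506-binding and TGF-beta lists, and genes called both from DMSO to 0.2 µM and at the dose step. Genes with an endoplasmic reticulum stress element are also named, chosen for that element. A few genes that this rule names are not reported here. Labels without a gene name were left unnamed, as were dates made from symbols. Promoter sequences are from RefSeq (GRCr8), matched by symbol; rat genome coordinates in rn6 were not used here.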

Additional observations from a re-analysis of the deposited data

Results flagged for a closer look

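The dose step from 0.2 to 2.0 µM FK506 differed between A53T and vector cultures for 7651 genes by limma's interaction contrast at an adjusted p of 0.05. Groups of 3 libraries are too small for the check on single outlying libraries, so that check was not made. The A53T group at 0.2 µM counts as 1 averaged sample, so every value below rests on the assumption that it varies like the other groups. Its mean also lay 1.14 to 1.51 log2 units (root mean square) from those of the other 5 groups. Values are the A53T step minus the vector step on the log2 scale, for the 9 leading rises and 6 leading falls whose difference passed.

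Among the leading rises of vector cultures, the difference was most negative for Zbtb20 (-6.44), a zinc finger factor that rose in vector and fell in A53T. It was -4.63 for the cytokine Gdf15 and -4.63 for the receptor Tgfbr2, -3.88 for the deiodinase Dio2 and -2.04 for Gtse1. The AP-1 factor Fosl1 (-1.92), the cytoskeletal protein Smtn (-1.84), the kinase inhibitor Cdkn1a (-1.74) and the oxidative stress gene Osgin1 (-0.72) completed the 9. These genes were chosen as the largest vector steps, which the difference subtracts, so its sign is partly fixed by the choice, and 9 of 12 is near the 68.0% of all genes that differed.

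Among the leading falls, the A53T step was lower still for Pdzd2 (-3.57), Hdac9 (-2.83), Egr3 (-2.13) and Dgkg (-1.36). It was higher for Ctxn3 (2.18) and Crhbp (1.75), which encode a neuronal membrane protein and a hormone-binding protein. What underlies the difference between the genotypes was not tested.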

How the results depend on the processing

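With 3785 genes called for the dose step, the count was 6552 with array weights per library and 1250 for the 6 libraries alone with a replicate block, a fit with fewer residual degrees of freedom; for the array weights the cause was not tested. It ran from 2670 (without replicate 2 at 0.2 µM) to 4419 (without replicate 1 at 0.2 µM) with 1 library left out, and from 3032 to 4355 under the other settings. Deviations of same-numbered libraries at the 2 doses correlated at -0.374, -0.51 and 0.366. With 1 library standing apart at each dose, these values cannot decide whether the titles' replicate numbers pair the samples. Whether calls lost in the replicate block are weaker effects was therefore left undecided. The interaction count was 7651, and 7162 to 8604 under the alternatives. Of the named genes 132 were called, 102 of them in each of 20 settings that tested them, and 0 changed direction. Most losses came with the 6-library replicate block (29) and without replicate 2 at 0.2 µM (12). Other scalings moved the median of all genes by less than 0.1, but scaling aligns the libraries, so this says little. Quantile normalization moved glycolysis falls from 5 to 12, presynaptic falls from 13 to 18 and ribosomal rises from 12 to 19. It lowered the rises of endoplasmic reticulum genes from 15 to 11 and of aminoacyl-tRNA synthetases from 10 to 7. With it p53 targets kept 13 rises and had 2 falls. Raw depth was not known, so no limit from counting can be given for low genes such as Tgfbr2 or Cxcl1.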

Other observations

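Some genes of DNA replication rose with the dose step in cultures described as neurons and astrocytes. Of 15 measured proliferation genes 5 were called higher (33.3%, against 18.0% of all genes) and 1 lower, with a median of 0.12. The 5 were subunits of the replicative helicase (Mcm2, Mcm5, Mcm6, Mcm7) and the polymerase clamp Pcna. Other measured subunits of the helicase were not called higher. Mcm5 read 11.2 to 23.3 in DMSO, 20.1 to 26 at 0.2 µM and 72.2, 55 and 54.6 at 2.0 µM (1.34 ± 0.34, adjusted p = 0.0087 by limma). Pcna read 1385 to 1451, 1386 to 1569 and 2020 to 2217 (0.51 ± 0.06). None of the 5 was called between DMSO and 0.2 µM, and 5 or 6 were called higher with any 1 library left out.

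Olig1 and Olig2, factors of the oligodendrocyte lineage, which the labels do not name, went opposite ways at the lower dose and both fell at the step. Olig1 read 2498 to 2588 in DMSO, 1690 to 1992 at 0.2 µM and 860.1 to 963.8 at 2.0 µM (-1.03 ± 0.07). Olig2 read 401.1 to 431.4, rose to 542.2 to 615.5 and fell to 335.5 or lower (-0.86 ± 0.08). Of 8 measured markers 3 fell, 0 rose and 5 were not called, the third fall being Cspg4 (-0.52 ± 0.15), and Cspg4 lost its call without replicate 2 or 3 at either dose (-0.50 to -0.40). The markers Pdgfra and Mag were not called, and the summed level of the 8 was 3467 to 3892 at 0.2 µM and 2369 to 2454 at 2.0 µM.

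Of 12 fibroblast, mural and meningeal markers 4 fell and 1, the contractile gene Tagln, rose, while 7 were not called. The collagen-binding proteoglycan Lum read 18.9, 28.9 and 19.2 at 0.2 µM and 3.88, 4.63 and 5.07 at 2.0 µM (-2.06 ± 0.31). The falls numbered 2 without replicate 2 at 0.2 µM or replicate 2 at 2.0 µM, and 5 without replicate 1 at 2.0 µM.

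Besides Dio2, a pair of thyroid hormone genes were called. Slco1c1, a thyroxine transporter of astrocytes and brain vessels, read 266.7 to 300.6 in DMSO, 113.6 to 120 at 0.2 µM and 44.5 to 61 at 2.0 µM, so it fell at each dose (-1.24, then -1.22 ± 0.15). The receptor Thrb fell by 0.52 ± 0.14 and Thra was not called (-0.09 ± 0.05). Of 8 measured genes 1 rose and 2 fell, against 18.0% and 15.7% of all genes, with 3 falls without replicate 1 at 0.2 µM. Thrb lost its call without replicate 2 or 3 at 0.2 µM or replicate 2 at 2.0 µM (-0.48 to -0.44).

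Glucocorticoid receptor targets rose in 7 of 13 cases and fell in 1 (53.8% and 7.69%, against 18.0% and 15.7% of all genes). Among the rises were the clock gene Per1 (0.49 ± 0.12), the phosphatase Dusp1 (0.58 ± 0.11) and Cebpd (0.48 ± 0.11). Fkbp5, also on this list, was not called, and Ddit4 and Dusp1 are shared with the stress and early-gene lists. The rises numbered 5 without replicate 2 or 3 at 0.2 µM or replicate 2 at 2.0 µM. Autophagy and lysosome genes split, with 7 rises and 5 falls among 24 (29.2% and 20.8%, against 18.0% and 15.7% of all genes). Atg5 rose from 448.4 to 516 up to 634.5 to 724.6 (0.50 ± 0.10), whereas the lysosomal calcium channel Mcoln1 fell from 859.4 to 937.7 to 639.5 to 689.8 (-0.44 ± 0.07). The rises numbered 11 without replicate 1 at 0.2 µM and 4 without replicate 2 at 0.2 µM or replicate 2 at 2.0 µM. Hypoxia genes gave 2 rises and 1 fall among 12 (16.7% and 8.33%), so neither share exceeded that over all genes. The fall was Egln3, an oxygen-sensing hydroxylase (-0.91 ± 0.12). The rises numbered 1 without replicate 2 or 3 at either dose, and the falls 2 without replicate 1 at 0.2 µM. Complement genes gave 1 rise, C3 (0.71 ± 0.17), and 2 falls among 8, with 1 fall without replicate 3 at 2.0 µM. Fatty acid synthesis gave 2 rises and 3 falls among 15 (13.3% and 20%, near the shares over all genes). There was 1 fall without replicate 2 or 3 at 0.2 µM, 2 without replicate 3 at 2.0 µM and 0 without replicate 2 at 2.0 µM. Cholesterol efflux genes gave 3 rises and 1 fall among 12, led by the sterol-activated receptor Nr1h2 (0.67 ± 0.11). Of 12 endothelial markers sought 2 were in the table, and neither was called.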
